A study of Tulipa gesneriana with 15 samples.

Results

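A set of 150 genes of the garden tulip (Tulipa gesneriana) was taken from 76388 listed in the deposited expression table. Their stage values were lower in buds, in both blooming stages and in early senescence than in late senescence. The genes were chosen by their own FPKM values, the unit of the deposited table, in which the fragments assigned to a gene are divided by its length and by the size of the library. For each stage, log2(FPKM + 1) was averaged over its 3 libraries. A gene had to average at least 5 FPKM in late senescence, which 21677 genes did. Of these, 143 were dropped because they stood below 0.1 FPKM in all 9 libraries of the 2 blooming stages and of early senescence. The remaining 21534 genes were ranked by a score, the late senescence value minus the highest of the 4 earlier stage values, and the first 150 were kept. Every contrast with late senescence was therefore used in the choice, and those differences are given as descriptions, with no test. Had no gene been dropped, 69 of the 143 would have scored as high as the last gene kept.

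The libraries came from whole flowers of plants labelled wild type, and so hold RNA of petals and of all other floral organs. There were 15 of them, with 3 for each of 5 stages: buds, flowers in partial blooming, flowers in full blooming, and flowers in early and in late senescence. No treatment is given. Nothing in the labels ties a library to a plant, so the spread between the 3 libraries of a stage may be technical. In whole flowers, fewer cells of a type and less RNA per cell cannot be told apart.

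Senescence is the last, genetically controlled phase of flower life. Cells of the petals break down their proteins, nucleic acids and membranes with newly made hydrolytic enzymes, and the products are exported to other organs before the cells die. Genes that come on late in this course can include such enzymes, transporters and stress-response genes, while the ovary and its seeds may go on developing in the same flower. The table pairs no identifier with a gene name, function, position or sequence, so none of these roles can be given to any of the 150 genes. Single genes are called here by identifier or by their rank on the score.

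Across the whole series, sums of FPKM ran from 861035 to 1094997 per library, and between 35738 and 42158 genes reached 1 FPKM. Depth is unknown, because the table holds no read counts. An exact 0 can be a failed estimate in such a table, so genes are described only as listed at 0. Bud replicate 2 and full blooming replicate 2 stood apart in the 150 genes, and full blooming replicate 3 stood apart both in some of them and over all genes, as set out below.

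The scores ran from 2.96 to 6.44 on the log2(FPKM + 1) scale, with a median of 3.53 and quartiles of 3.17 and 4.10. There was no gap at the end of the list. The last 3 genes kept scored 2.963, 2.962 and 2.956, with late senescence means of 101.4, 13.01 and 372 FPKM. The first 3 left out scored 2.937, 2.931 and 2.928, with late senescence means of 90.6, 30.5 and 15.3 FPKM.

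Late senescence levels differed widely between the genes. Their late senescence means ran from 9.15 to 1019 FPKM, with a median of 41.8 and quartiles of 24.4 and 98.0, and 36 genes averaged 100 FPKM or more. Together they held 1.35%, 1.32% and 1.26% of the summed FPKM in the 3 late senescence libraries. In the 12 earlier libraries that share ran from 0.0181% in bud replicate 3 to 0.228% in bud replicate 2. The 10 highest genes made up 38.1% of the group's late senescence sum, and the highest alone 7.41%. Over the 150 genes, the median stage value on the log2(FPKM + 1) scale was 1.15 in buds and 0.33 and 0.77 in partial and full blooming. It was 0.81 in early and 5.40 in late senescence. For all 47326 genes that entered the tests described below, the same medians were 2.30, 2.15, 2.09, 2.06 and 2.35.

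**Figure D1:**
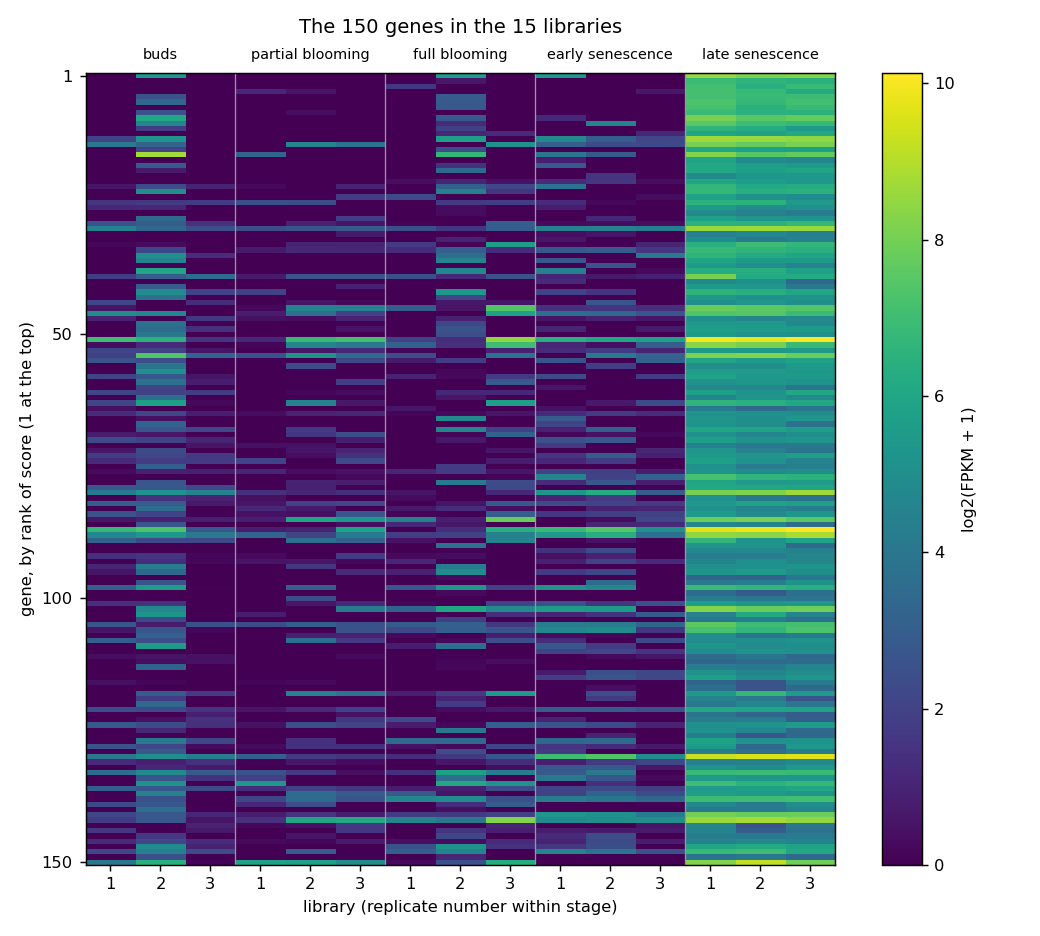
Level of each of the 150 genes (rows, ordered by score) in each of the 15 libraries (columns, ordered by stage and replicate), as log2(FPKM + 1). All 3 late senescence columns are bright in every row, and before late senescence the brightest columns include bud replicate 2, where 105 of the 150 genes were at 1 FPKM or more.

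In 142 of the 150 genes, all 3 late senescence libraries lay above all 12 others, against 9.94% of all genes tested, a difference the choice itself favours. The other 8 overlapped because of single libraries. The earlier library that reached the late senescence range was bud replicate 2 in 4 of them, full blooming replicate 2 in 2 and full blooming replicate 3 in 2. The clearest case was the gene ranked 16, at 292, 174 and 206 FPKM in the late senescence libraries. It was at 421 FPKM in bud replicate 2 and at 102 in full blooming replicate 2, while the other 2 bud libraries were at 0 and 0.02 FPKM and the other 2 of full blooming were listed at 0. Averaging on the log scale let this gene into the list although a bud library exceeded every late senescence library. Bud replicate 2 and full blooming replicate 2 were also both left out and the genes chosen again, a setting added after these values were seen. All 150 genes then chosen were above all remaining earlier libraries, but not all of them were among the 150 described here. That setting takes out the libraries behind most of the overlaps, so nothing is read from its result.

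A late senescence library that took no part in the choice also stood high. When the genes were chosen without late senescence replicate 1, that library exceeded all 12 earlier libraries in 145 of the 150 genes, against 18.7% of all genes tested. Chosen without replicate 2, the count was 147, against 20.3%, and chosen without replicate 3 it was 134, against 20.4%. The median of the left-out library above the highest earlier stage value was 3.80, 3.48 and 3.46 on the log2 scale for replicates 1, 2 and 3 in turn. Over all genes tested those medians were -0.33, -0.35 and -0.23. The earlier libraries entered both the choice and these counts, which the choice therefore favours. Only the left-out library took no part in the choice, and it may differ from the other late senescence libraries only technically. The counts are given as descriptions. The lowest single value was -1.04, in replicate 3, and 16 genes chosen without that library did not exceed all earlier libraries in it.

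Among the late senescence libraries, replicate 1 was most often the highest for these genes. It was the highest of the 3 in 90 of the 150 genes and in 33.0% of all genes tested. After median-ratio scaling, which takes out differences between libraries in overall level, it was the highest in 95 of the 150. The 33.0% of all genes tested was not recomputed after that scaling, so the 95 has no share of all genes beside it. The spread within the stage was close to that of other genes. The median SD over the 3 libraries was 20.3% of the late senescence mean for the 150 genes and 18.2% for all genes averaging at least 5 FPKM there. In 28 genes the highest late senescence library was over 2 times the lowest. One of these was the gene ranked 39, at 264 FPKM in replicate 1 and at 72.7 and 75.1 in replicates 2 and 3.

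The gene with the highest score, F01.PB14965, was at 365, 278 and 303 FPKM in the late senescence libraries. Before that it was at 41.3 FPKM in bud replicate 2, 46.8 in full blooming replicate 2 and 43.2 in early senescence replicate 1, and it was listed at 0 in the other 9 libraries. The late senescence libraries did not overlap with any earlier one, and the earlier signal sat in 1 library each of 3 stages. Its score of 6.44 was 5.51 without full blooming replicate 1 or 3, 5.60 without bud replicate 1 or 3 and 5.56 without early senescence replicate 2 or 3, since a stage mean with fewer values of 0 is higher.

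The second, F01.PB24555, was at 119, 95.8 and 84.4 FPKM in late senescence. It was at 0.59 FPKM in full blooming replicate 2 and listed at 0 in the other 11 libraries. Its score was 6.42. It was thus close to an all-or-none gene, and the value in full blooming replicate 2 alone kept it from being dropped. Scores of genes with values of 0 depend on the number added before the logarithm: with 0.1 in place of 1 they were 8.66 for F01.PB14965 and 9.02 for F01.PB24555.

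**Figure D2:**
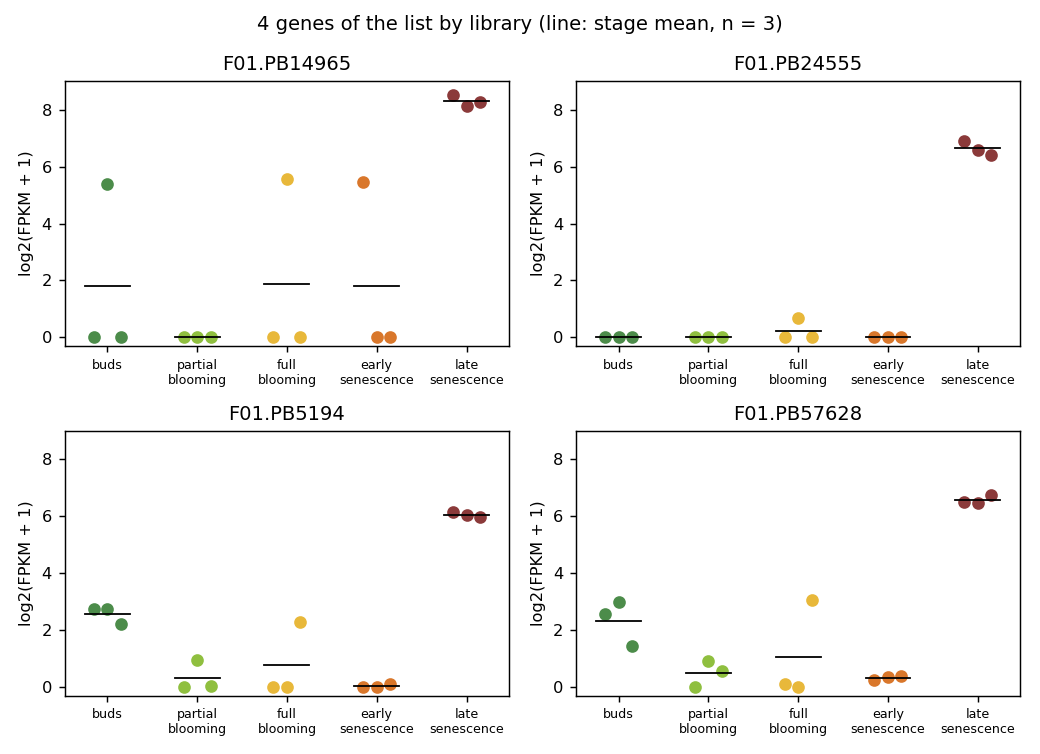
Level of 4 of the 150 genes in each library, as log2(FPKM + 1), by stage, with a line at the mean of the 3 libraries. F01.PB14965 and F01.PB24555 had the highest scores, and F01.PB5194 and F01.PB57628 the largest called falls from buds to early senescence; all 4 stand highest in the 3 late senescence libraries.

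Signal before late senescence was sparse, which the choice itself favours. Of the 150 genes, 12 reached 1 FPKM in none of the 12 earlier libraries, 78 did so in 0 to 3 of them, and 17 in 9 to 12. The 78 sparse genes had a median late senescence mean of 29.8 FPKM, and the 17 broadly detected ones 234 FPKM. The score sets late senescence well above every earlier stage, so a gene with earlier signal had to be higher there. Nothing is read from this difference. Partial blooming was the emptiest stage, with 58 genes listed at 0 in all 3 of its libraries. The counts were 24 for buds, 22 for full blooming and 34 for early senescence. No gene was listed at 0 in all 3 late senescence libraries. In single earlier libraries, 32 (bud replicate 2) to 101 (partial blooming replicate 1) of the 150 were listed at 0. In the same libraries 3.35% and 6.12% of all genes tested were.

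Not all of the genes were near 0 before late senescence. A stage mean of 5 FPKM or more was found for 37 of them in buds and for 29 in early senescence, and for 20 and 38 in partial and full blooming. Only 4 genes were at 1 FPKM or more in all 12 earlier libraries, those ranked 30, 51, 88 and 130. The gene ranked 51 had the highest late senescence mean, at 1021, 913 and 1123 FPKM. In full blooming it was at 3.07, 1.46 and 347 FPKM, and in partial blooming at 1.19, 113 and 142. Its early senescence values, 86.5, 64.9 and 52.0 FPKM, lay closer together. The gene ranked 30 was the steadiest of the 4 before senescence, between 2.11 and 20.8 FPKM in the 9 libraries of buds and of both blooming stages, and at 379, 409 and 382 FPKM in late senescence.

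The earlier signal was concentrated in a few libraries. In bud replicate 2, 105 of the 150 genes were at 1 FPKM or more, against 47 in bud replicate 1 and 36 in bud replicate 3. In full blooming replicate 2 there were 70 such genes, against 29 in replicate 1 and 53 in replicate 3. Early senescence replicates 1, 2 and 3 had 69, 70 and 46, and the partial blooming libraries 22, 42 and 46. Of all genes tested, 85.4% reached 1 FPKM in bud replicate 2, while 85.2% and 80.4% did so in bud replicates 1 and 3. In full blooming the share of all genes was 75.2% in replicate 2 and 75.3% and 85.4% in replicates 1 and 3, so there replicate 3 stood higher.

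**Figure D3:**
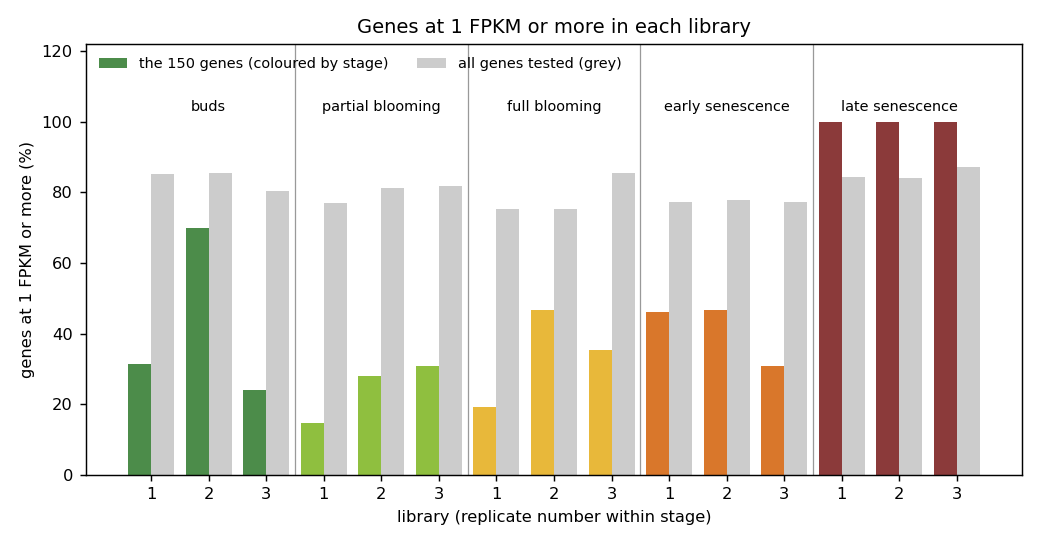
Percent of genes at 1 FPKM or more in each library, for the 150 genes (coloured bars, left) and for all 47326 genes tested (grey bars, right). For the 150 genes the earlier libraries run from 14.7% to 70.0%, highest in bud replicate 2, while for all genes tested the same libraries run between 75.2% and 85.4%.

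Bud replicate 2 was the highest bud library in 93 of the 150 genes, and in 35.1% of all genes tested. In 54 genes it was at 1 FPKM or more while neither other bud library was. The median gene stood in it at 7.93% of its late senescence mean, and the upper quartile at 23.7%, whereas the median was 0 in the other 2 bud libraries. Full blooming replicate 2 was the highest library of its stage in 72 genes, and in 23.8% of all genes tested, and 39 genes reached 1 FPKM in it and in neither other full blooming library.

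Of the 105 genes at 1 FPKM or more in bud replicate 2 and the 70 in full blooming replicate 2, 60 were common to both, which is 57.1% of those in bud replicate 2 and 85.7% of those in full blooming replicate 2. Across the 150 genes, log2(FPKM + 1) in bud replicate 2 correlated at 0.47 with full blooming replicate 2, at 0.35 with bud replicate 1 and at 0.25 with bud replicate 3. Over all genes tested, bud replicate 2 correlated at 0.80 with full blooming replicate 2 and at 0.92 with each other bud library. Full blooming replicate 2 correlated at 0.24 and 0.06 with replicates 1 and 3 of its stage across the 150 genes, and at 0.96 and 0.87 over all genes tested. These correlations are across genes of the same libraries, which are not independent replicates.

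A smaller group of genes was high in full blooming replicate 3 instead. That library held 0.203% of its summed FPKM in the 150 genes, the second highest share of the 12 earlier libraries, but only 53 genes at 1 FPKM or more, and 3 genes made up 47.8% of the sum. The gene ranked 85 was at 222, 271 and 186 FPKM in late senescence. It was at 20.7, 0.80 and 232 FPKM in the full blooming libraries, at 0.79, 60.9 and 40.8 in partial blooming, and at no more than 0.84 in buds. The gene ranked 142 followed a like course, at 388, 435 and 357 FPKM in late senescence, at 23.4, 15.4 and 297 in full blooming and at 1.56, 60.5 and 72.7 in partial blooming. Both reached in 1 full blooming library a level of the order seen in late senescence. Across the 150 genes full blooming replicate 3 correlated at 0.78 and 0.80 with partial blooming replicates 2 and 3. Over all genes tested these correlations were 0.92 and 0.93, against 0.87 with full blooming replicate 2, and this library was the highest of its stage in 55.3% of them. Of all genes tested 85.4% reached 1 FPKM in this library, against 75.3% and 75.2% in full blooming replicates 1 and 2. By these values, as deposited, it stood apart in its stage over all genes as well. Its correlation with full blooming replicate 1 was not computed. Its general level was higher too: median-ratio scaling divides it by 1.169, and full blooming replicates 1 and 2 by 0.888 and 0.881. The 55.3% and the 85.4% were not recomputed after that scaling. What sets these libraries apart within their stages was not tested.

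Which earlier stage was highest depended on these libraries. Before late senescence, buds were the highest stage for 63 of the 150 genes, partial blooming for 7, full blooming for 38 and early senescence for 42. For all genes tested the shares were 45.1%, 16.0%, 12.1% and 26.8%. Without bud replicate 2 the 4 counts were 22, 15, 58 and 55. Without full blooming replicate 2 they were 79, 5, 17 and 49. A stage at least 1 log2 unit above the other 3 was found for 12 genes in early senescence, 8 in buds, 4 in full blooming and 1 in partial blooming.

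Changes among the 4 earlier stages were then tested, since the genes were not ranked on any contrast between them. The rule did use the highest of the 4 stage values, so these stages could not differ by much in genes of moderate late senescence level, and the counts are printed beside those of all genes as descriptions. The test was limma's moderated test on log2(FPKM + 1) over all 15 libraries, with Benjamini-Hochberg adjustment over 47326 genes and a threshold of 0.05. All 150 genes passed the filter on low values (1 FPKM or more in at least 3 libraries), but 54 of them passed only because of late senescence. Of the 150, 125 were called in none of 4 comparisons, the 3 steps from buds to early senescence and early senescence against buds. The same was so of 51.4% of all genes tested, and because of the filter and the choice nothing is read from this difference.

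At the onset of senescence, early senescence against full blooming, 13 genes rose and 0 fell (limma, adjusted p under 0.05). Of all genes tested, 8.78% rose and 6.85% fell. The 13 genes are 8.67% of the 150, a share from which nothing is read, given the 54 genes that passed the filter only through late senescence and the cap that the choice put on these stages. At an unadjusted p under 0.05, 21 of the 150 were higher and 3 lower, and 13.5% and 13.4% of all genes tested. With library quality weights 24 rose, where 14.1% of all genes tested did, and 1 fell, where 11.7% did. Without full blooming replicate 1 and without replicate 2, in turn, 1 and 2 genes were called lower. Of all genes tested, 6.36% and 6.17% were. The 13 genes rose from full blooming to early senescence by 1.10 to 4.55 on the log2 scale, with a median of 2.24. Of these, 7 were also called higher in early senescence than in buds, and 6 were not. Another 7 genes were called higher than in buds but not than in full blooming. In early senescence the 13 stood at a median of 10.1% of their late senescence mean, with a range of 5.10% to 14.9%. For the other 137 genes the median was 2.14%, with a wider range of 0% to 19.95%. The 13 were called for being higher in early senescence, so the call itself favours the difference in medians.

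The largest of these rises was in the gene ranked 130. It was at 127, 168 and 29.3 FPKM in early senescence, against 1.42, 2.06 and 5.81 FPKM in full blooming. It had been at 15.2, 30.2 and 18.1 FPKM in buds and went on to 626, 726 and 817 FPKM in late senescence. No early senescence library overlapped with full blooming. The gene ranked 80 ran the same way, at 37.8, 76.6 and 6.48 FPKM in early senescence against 0.48, 0 and 1.20 in full blooming, after 17.1, 34.1 and 21.4 FPKM in buds. The lowest early senescence library of both genes was replicate 3, as in 9 of the 13.

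Other genes of the 13 had no bud level to return to. The gene ranked 110 was at 3.16, 3.42 and 1.90 FPKM in early senescence and at 29.6, 36.8 and 34.5 in late senescence, and was listed at 0 in all 9 libraries of the stages before. The genes ranked 115 and 114 were likewise listed at 0 in those 9 libraries. The first was at 2.63, 5.40 and 3.51 FPKM in early senescence and at 53.1, 32.5 and 39.6 in late senescence. The second was at 0.64, 4.52 and 3.52 FPKM in early senescence and at 36.1, 23.4 and 30.9 in late senescence. In these 3 genes every early senescence library lay above every earlier one.

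**Figure D4:**
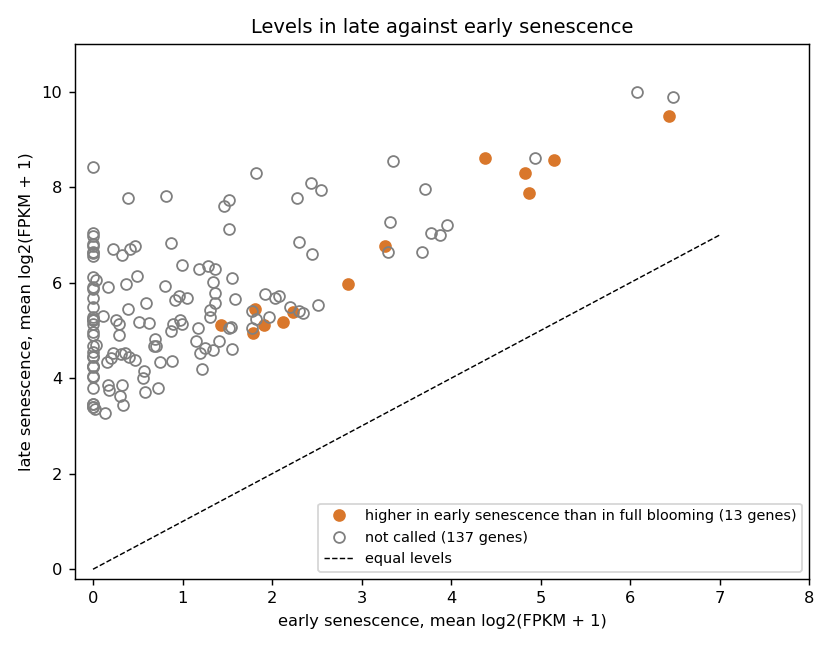
Mean log2(FPKM + 1) over 3 libraries in late senescence (vertical axis) against early senescence (horizontal axis) for the 150 genes, with the 13 called higher in early senescence than in full blooming filled and the other 137 open. All points lie above the dashed line of equal levels, which the choice of the genes requires. The 13 filled points are absent at the left edge, where early senescence is near 0, which the call itself favours.

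Against buds, 14 genes were higher in early senescence and 4 lower, where 17.5% of all genes tested were higher and 26.8% lower. With median-ratio scaling these shares of all genes were 22.4% and 20.4%, and with quantile normalization 22.1% and 21.2%, so which direction was more frequent among all genes depended on the scaling. The 14 are 9.33% of the 150 and the 4 are 2.67%, and the choice of the genes limits both. Of the 14 genes, 7 were also among the 13 that rose from full blooming. These 2 comparisons share the early senescence libraries. The higher genes numbered 9 without bud replicate 1 (15.8% of all genes tested), and 8 without early senescence replicate 1 (15.1%) or 2 (14.9%). The lower genes numbered 2 without bud replicate 2 (21.4% of all genes tested) or early senescence replicate 2 (21.5%). They numbered 7 without full blooming replicate 3 (30.2%) and 8 under library quality weights (32.3%).

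The genes that fell averaged between 2.89 and 6.55 FPKM in buds and stood below 1 FPKM on average in early senescence. F01.PB5194 was at 0, 0 and 0.08 FPKM in early senescence, against 5.70, 5.73 and 3.67 FPKM in buds, and it reached 69.4, 65.7 and 61.2 FPKM in late senescence. Its bud libraries did not overlap with those of early senescence. The change was -2.54 ± 0.49 (SE) on the log2(FPKM + 1) scale, with a limma adjusted p of 0.000991. Bud replicate 2 was not apart in this gene. In full blooming it was at 0, 0 and 3.91 FPKM, so replicate 3 alone kept a level like that of buds.

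F01.PB57628 was at 0.19, 0.27 and 0.30 FPKM in early senescence, against 4.87, 6.85 and 1.74 FPKM in buds, and at 89.0, 87.1 and 107.5 FPKM in late senescence. Again the 2 stages did not overlap, and full blooming replicate 3, at 7.29 FPKM, stood above the other 2 full blooming libraries at 0.08 and 0. The change was -2.00 ± 0.64 (SE; limma adjusted p of 0.0227). This call was lost without bud replicate 1 (adjusted p of 0.0655), bud replicate 2 (0.0853), early senescence replicate 1 (0.0584) or early senescence replicate 2 (0.0538). Of the other 2 genes that fell, 1 was listed at 0 in all early senescence libraries, against 3.37, 2.90 and 2.41 FPKM in buds. The other, the gene ranked 39, was at 1.06, 0.61 and 0.83 FPKM in early senescence, against 2.68, 6.45 and 10.5 FPKM in buds.

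From buds to partial blooming, as the flower opens, 0 of the 150 genes rose and 5 fell. Among all genes tested 6.62% rose and 7.69% fell. At an unadjusted p under 0.05, 3 of the 150 were higher and 15 lower, and 11.5% and 18.2% of all genes tested. The 5 genes fell by 1.24 to 3.30 on the log2 scale, and 2 of them were also lower in early senescence than in buds. Their number was 3 without bud replicate 2 or partial blooming replicate 2, 9 without bud replicate 3, and 8 without full blooming replicate 3 or with library quality weights. The number that rose was 1 without bud replicate 2, 1 without partial blooming replicate 1, 2 without full blooming replicate 3, and 4 under library quality weights. In sign alone 109 of the 150 genes were lower in partial blooming than in buds and 23 higher, with a median difference of -0.60 on the log2 scale. The signs were not counted over all genes tested, and 58 of the 150 were listed at 0 in all 3 partial blooming libraries. Nothing is read from these counts. The median difference over all genes tested was -0.13. Bud replicate 2, the highest bud library in most of the 150 genes, enters every one of these differences.

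From partial to full blooming, 0 genes rose and 0 fell by limma's test, where 0.98% of all genes tested rose and 0.699% fell. At an unadjusted p under 0.05, 3 of the 150 were higher and 1 lower, and 6.62% and 7.09% of all genes tested. With library quality weights 2 of the 150 rose and 5 fell, where 5.49% and 9.5% of all genes tested did.

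Ranking genes by the same score for each of the other stages, with none dropped, gave lower scores. The median score of the first 150 genes was 2.77 for buds, 0.99 and 0.92 for partial and full blooming, and 1.53 and 4.04 for early and late senescence. The score at rank 150 was 2.33, 0.81, 0.68, 1.22 and 3.37 in the same order of stages. These are descriptions of 5 lists each chosen by its own stage, and no test was made between them. Of the 150 genes described here, 93 were in the late senescence list made with none dropped.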

How the data were processed

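RNA sequencing of whole tulip flowers was deposited as 1 table of FPKM values, 1 column for each of 15 libraries, normalised by the authors for feature length and library size and written to 2 decimals. That unit was read from the table's name and values. The tools named, per the submitters' processing notes and with no role or order, were DESeq 1.18.0, HTSeq 0.6.1, TopHat2 2.0.12 and Bowtie2 2.2.3. Reference sequence, annotation and filters: not given in the sources used here. Estimates of this kind can split reads between near-identical copies of a gene, and the table does not say which identifiers are copies.

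Columns were matched to libraries by the code in the labels, and groups are the labelled stages. No 2 libraries were identical (0 identical pairs). Low values were not whole multiples of a smallest step, so the depth of the libraries is unknown and counting error cannot be given.

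The 150 genes, the classes and the lists were chosen with earlier results of these data known. Tests used limma 3.58.1 in R 4.3.3 on log2(FPKM + 1) with a mean-variance trend, fitted to the 15 libraries together, which share 1 estimate of the spread. Genes at 1 FPKM or more in at least 3 libraries were tested (47326). Tests were two-sided, with Benjamini-Hochberg adjustment over all genes tested and a threshold of 0.05. Fold changes on this scale understate those of low genes. The fit was tested on simulated data. Identifiers were named for the 2 highest scores and the 2 largest called falls from buds to early senescence. Other genes are called by rank, and those described by rank were picked after their values were seen. Alternatives were another pseudocount, other filters, median-ratio scaling, quantile normalization, a replicate block, fits on 2 stages, library weights, no trend, other list sizes and minimum levels, and leaving out each library.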

Additional observations from a re-analysis of the deposited data

How the results depend on the processing

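Leaving out bud replicate 2 and full blooming replicate 2 together was chosen after the data were seen. Of 384 values recomputed, 322 stayed within 1.5 times, within the spread or on their side of the threshold. Another 57 moved and 5 lost a call, all 5 for F01.PB57628. A change of direction was looked for only in the values of the genes named by identifier, and none was found. For each value that moved, the cause was not tested, apart from the list size and the pseudocount: a longer or shorter list and another pseudocount change scores by construction. Chosen again with a pseudocount of 0.1, 100 of the 150 genes were kept. The list then chosen had a median score of 5.17 and 0.623% of summed FPKM in late senescence, against 3.53 and 1.31% as reported. With the 150 genes fixed and that pseudocount, 1 rose from buds to partial blooming and 1 from partial to full blooming. Of all genes tested 6.74% and 0.866% did. With no all-or-none gene dropped, 93 were kept, with a median score of 4.04 and a share of 1.15%. Lists of 100 and 300 genes had median scores of 3.92 and 2.95 and shares of 0.947% and 2.16%, and in the longer one 274 genes had no overlap of late senescence with earlier libraries. The share was 1.22% with median-ratio scaling and 1.47% with a late senescence minimum of 20 FPKM. With either scaling the median difference between early senescence and buds over all tested genes was -0.01, and -0.21 as deposited.

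Weighting libraries by quality gave 24 genes higher and 1 lower in early senescence than in full blooming. It gave 4 higher and 8 lower in partial blooming than in buds, and 2 higher and 5 lower in full than in partial blooming. In early senescence 8 were lower than in buds. The shares of all genes tested were 14.1% and 11.7%, 8.99% and 13.3%, 5.49% and 9.5%, and 32.3% in the same order. Chosen again without both bud replicate 2 and full blooming replicate 2, 118 of the 150 genes were kept, and the list had a share of 1.14%. With the 150 genes fixed, 2 were lower in early senescence than in full blooming and 2 lower in early senescence than in buds. In partial blooming 1 was higher and 3 lower than in buds.

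Leaving out each library in turn and choosing again kept 121 (without full blooming replicate 2) to 147 of the 150 genes, with median scores of 3.29 to 3.64, shares of 1.02% (without early senescence replicate 3) to 1.37%, and 141 to 146 genes with no overlap. With the 150 genes fixed, 10 to 17 were higher and 0 to 2 lower in early senescence than in full blooming. Against buds, 8 to 16 were higher and 2 to 7 lower in early senescence, and 0 to 2 higher and 3 to 9 lower in partial blooming. From partial to full blooming 0 were higher or lower. Shares of all genes tested moved too. The share lower in partial blooming than in buds was 3.32% without partial blooming replicate 1 and 13.1% without full blooming replicate 3.

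The labels give the stages the same replicate numbers but not what a number shares. Deviations of same-numbered libraries from their stage means correlated between -0.374 and 0.369, with a median of -0.0155 over 30 pairs, so the numbers were not taken to pair the libraries. With the replicate block 1 gene rose from buds to partial blooming, against 0 without it, and no other count moved that far. The depth behind each value is unknown, which limits every statement on genes listed at 0.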
